A study of Mus musculus with 12 samples.

Results

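The immediate early genes Fos, Fosb, Fosl2, Jun, Junb, Egr1, Egr2, Egr3, Arc and Nr4a1 were followed in the P18 retina of mice with oxygen-induced retinopathy (OIR). These 10 genes were taken by name from a table of 36131 genes, with earlier results of these data known. Each symbol had 1 Ensembl row, and all 10 passed the filter on low counts, among 16489 genes tested over 12 animals and 16688 tested over 11. The animals were C57BL/6J wildtype mice, with 1 retinal RNA-seq library per animal and 4 animals in each of 3 groups. RA-PBS mice (animals 1 to 4) stayed in room air and received PBS. O2-PBS mice (animals 5 to 8) were kept in 75% O2 from P7, were back in room air from P12 and received PBS. O2-IC100 mice (animals 9 to 12) had the same oxygen exposure and received 10 µg/g of IC100, an antibody to the inflammasome adaptor ASC, into the peritoneum on P12, P14 and P16. The labels give that route for PBS as well, while the study's text describes placebo injection into the vitreous, so a difference in route between the PBS and IC100 animals cannot be told apart from the agent. Retinas were therefore sampled in room air, days after both the oxygen and the last injection. Whole retina was homogenized, so fewer cells of a type and less RNA per cell cannot be told apart. The p-values below set a group difference against the spread between animals within groups, with 1 library per animal. That spread is estimated over all groups in the fit.

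Total counts per retina were 14907143 to 24438082. The library of O2-IC100 animal 10 held 60.9% lens gene counts and 0.329% rod gene counts, against 3.71 to 4.6% rod counts in the other 11 animals, so calls for the 10 genes are counted both with all 12 animals and without animal 10, and some smaller values and the other gene lists come from the 11-animal fit, as stated beside them. Lens genes also took 1.3 to 4.67% of counts in RA-PBS animals 2, 3 and 4, but 0.0075% in RA-PBS animal 1 and at most 0.021% in the O2-PBS animals. Rod markers, which define this tissue, were abundant in all libraries but that of animal 10. The summed level of the Y-linked genes Ddx3y, Eif2s3y, Kdm5d and Uty differed as well. Unlike the other CPM values here, which are normalized (counts scaled by TMM library size), this level was scaled by the total count alone. It was 239 to 372 CPM in animals 1, 2, 3, 8, 9, 11 and 12, and 1.31 to 11 CPM in animals 4, 5, 6, 7 and 10. O2-PBS thus held 1 animal with a high Y-linked level, RA-PBS held 3, and O2-IC100 held 3.

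Immediate early genes are transcribed within minutes of a stimulus from factors already present in the cell, without new protein synthesis, and their transcripts are short-lived. In neurons they follow synaptic activity and light, and in glial, endothelial and smooth muscle cells they follow growth factors, stretch and injury. Fos and Jun family proteins pair to form the transcription factor AP-1, the Egr proteins are zinc finger transcription factors, Nr4a1 is an orphan nuclear receptor, and Arc is a synaptic protein.

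Promoters of immediate early genes can carry elements through which a stimulus acts, which was not tested here. The sequence just upstream of the start is shown for each called gene that has a window. RefSeq promoter windows of the GRCm38.p6 build (250 bases before to 50 bases after the start) were at hand for 7 of the 10 genes, and not for Egr1, Egr3 and Arc. Each stretch below is 150 bases on the strand of the gene, from position -140 to position 9, where position 0 is the start. Capitals mark matches, on either strand, to the CArG box bound by SRF, the core of the cAMP response element TGACG, and the EGR element GCGNGGGCG. The Fos stretch is chr12:85473750-85473899 (plus strand), the Fosb stretch chr7:19310036-19310185 (minus), the Fosl2 stretch chr5:32136332-32136481 (plus) and the Junb stretch chr8:84978739-84978888 (minus). For Egr2 the third of 5 windows is shown, chr10:67537729-67537878 (plus), and for Nr4a1 the stretch is chr15:101266706-101266855 (plus). The Jun stretch, chr4:95052213-95052362 (minus), is shown as the one AP-1 subunit among them without a match.
Fos: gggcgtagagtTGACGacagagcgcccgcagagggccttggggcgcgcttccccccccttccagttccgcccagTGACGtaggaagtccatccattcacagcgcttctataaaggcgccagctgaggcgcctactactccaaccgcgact
Fosb: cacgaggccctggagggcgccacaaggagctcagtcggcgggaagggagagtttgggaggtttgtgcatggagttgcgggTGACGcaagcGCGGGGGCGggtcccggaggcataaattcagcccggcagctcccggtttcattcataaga
Fosl2: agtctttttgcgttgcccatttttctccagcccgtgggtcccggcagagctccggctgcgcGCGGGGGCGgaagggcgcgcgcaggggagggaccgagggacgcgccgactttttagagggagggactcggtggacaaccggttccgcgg
Junb: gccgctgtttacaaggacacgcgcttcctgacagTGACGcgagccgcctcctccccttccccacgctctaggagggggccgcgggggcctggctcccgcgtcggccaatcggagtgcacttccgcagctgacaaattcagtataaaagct
Egr2: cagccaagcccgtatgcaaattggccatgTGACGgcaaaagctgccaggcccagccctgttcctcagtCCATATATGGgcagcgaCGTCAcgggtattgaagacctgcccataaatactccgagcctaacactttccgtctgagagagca
Nr4a1: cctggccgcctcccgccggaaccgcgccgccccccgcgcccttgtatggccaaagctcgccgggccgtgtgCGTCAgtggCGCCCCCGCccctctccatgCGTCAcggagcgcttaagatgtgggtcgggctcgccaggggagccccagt
Jun: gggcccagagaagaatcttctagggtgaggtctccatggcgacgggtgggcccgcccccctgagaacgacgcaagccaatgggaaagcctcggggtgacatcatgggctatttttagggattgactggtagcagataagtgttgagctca

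The cAMP response core was the most frequent of these letters, and it lay at -129 and -66 in Fos, -60 in Fosb, -106 in Junb, -111 and -55 in Egr2, and -233, -213, -69 and -40 in Nr4a1. It was held by 20.8% of all 32851 RefSeq windows of this length. A CArG box lay at -72 in the Egr2 window shown and in 1.63% of all windows. The Egr2 starts differed, since window 1 held no match and window 2 a CArG box alone. Windows 4 and 5 held the same elements as the window shown. The EGR element lay at -50 in Fosb, -79 in Fosl2 and -60 in Nr4a1, and in 5.55% of all windows. Neither the full element TGACGTCA (1.79% of windows) nor the AP-1 site TGANTCA (7.81%) was found in a window of the 7 genes. Only exact matches inside these windows were sought, so variant letters and sites more than 250 bases upstream of the start would be missed. A match is a description of letters and not a shown binding site, and binding was not measured.

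The first comparison set O2-PBS against RA-PBS retinas at P18. In O2-PBS retinas, transcripts of the Fos and Jun partners Fosb, Fosl2 and Junb and of Egr3 were 2.48 to 4.07 times those of RA-PBS retinas. These 4 of 10 genes passed the test with all 12 animals in the fit, where 0.782% of all tested genes were called higher. A call here needed a fold change of 1.5, p under 0.05 and an adjusted p under 0.1 by edgeR's quasi-likelihood test, adjusted over every gene tested after Benjamini and Hochberg. Without animal 10, which belongs to neither group but enters the shared estimate of the spread, Fos, Egr2 and Nr4a1 passed too. The count was then 7 of 10, against 4.09% of all tested genes called higher. In 8 of 10 genes every O2-PBS animal lay above every RA-PBS animal, a pattern that 7.81% of tested genes showed. The exceptions were Egr1 and Arc. The median log2 fold change was 1.14 over the 10 genes and -0.01 over all tested genes. Because the list was chosen with earlier results known, these values beside those of all genes are a description.

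**Figure D1:**
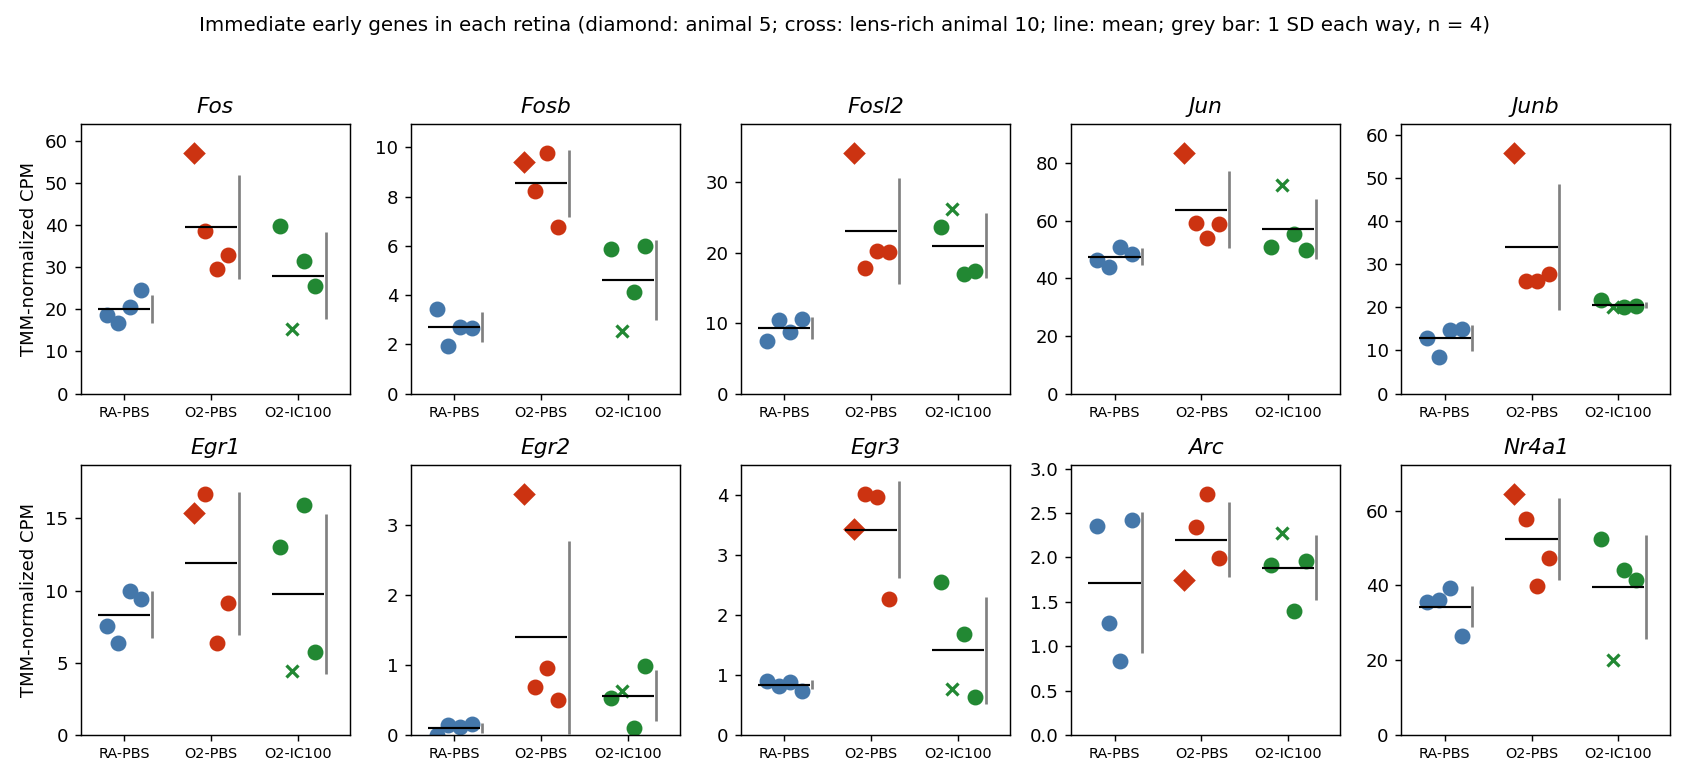
Normalized CPM (linear axes from 0, a scale for each gene) of the 10 immediate early genes in each animal of RA-PBS, O2-PBS and O2-IC100, with the group mean (line) and 1 SD each way (grey bar, n = 4). The diamond is animal 5 and the cross animal 10, and the Egr2 bar of O2-PBS stops at 0. The 4 O2-PBS animals sit above the 4 RA-PBS animals for all genes but Egr1 and Arc, and animal 5 is the highest O2-PBS animal for 6 genes.

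Fos (ENSMUSG00000021250), the founding Fos family gene, had 18.7, 16.8, 20.6 and 24.5 CPM in RA-PBS animals 1 to 4, 57.1, 38.6, 29.6 and 32.9 CPM in O2-PBS animals 5 to 8, and 39.8, 15.3, 31.4 and 25.5 CPM in O2-IC100 animals 9 to 12. Every O2-PBS value was above every RA-PBS value, with animal 5 far above the rest, and the O2-IC100 animals spread from below RA-PBS, in animal 10, into the O2-PBS range. The means were 20.2 ± 3.31 (SD, n = 4) in RA-PBS and 39.6 ± 12.3 CPM (SD, n = 4) in O2-PBS. The log2 fold change of 0.97 ± 0.28 (SE) missed the threshold with 12 animals (adjusted p = 0.268), and with 11 it was 0.97 ± 0.20 (adjusted p = 0.01).

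Fosb (ENSMUSG00000003545), whose splice form ΔFosB is long-lived in neurons, had 3.42, 1.93, 2.72 and 2.69 CPM in RA-PBS, from 40 to 61 counts a library. The O2-PBS animals had 9.41, 8.24, 9.78 and 6.76 CPM and the O2-IC100 animals 5.86, 2.53, 4.13 and 5.98 CPM. The O2-PBS group stood clear of both others, and it was tight, with no animal apart. The rise over RA-PBS was 3.17-fold, a log2 fold change of 1.67 ± 0.28 (SE, adjusted p = 0.0321) with 12 animals and 1.67 ± 0.21 (adjusted p = 0.000366) with 11. Splice forms were not separated in these counts.

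Fosl2 (ENSMUSG00000029135), which encodes Fra-2, a Fos family protein that lacks the strong activation domain of Fos, had 7.41, 10.4, 8.72 and 10.6 CPM in RA-PBS. It had 34.1, 17.8, 20.2 and 20.01 CPM in O2-PBS and 23.6, 26.1, 16.9 and 17.4 CPM in O2-IC100. Both oxygen groups lay wholly above RA-PBS, and the oxygen groups overlapped. The rise in O2-PBS was 2.48-fold, with a log2 fold change of 1.31 ± 0.24 (SE, adjusted p = 0.042) with 12 animals and 1.31 ± 0.20 (adjusted p = 0.00192) with 11.

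Jun (ENSMUSG00000052684), the most potent activator of the Jun family, had the smallest log2 fold change among the AP-1 subunits. It had 46.4, 44.0, 50.9 and 48.4 CPM in RA-PBS, 83.5, 59.0, 53.9 and 58.7 CPM in O2-PBS, and 50.8, 72.3, 55.4 and 49.9 CPM in O2-IC100. The RA-PBS and O2-PBS animals did not overlap, but apart from animal 5 the O2-PBS animals were close to the top of RA-PBS. The log2 fold change was 0.43 ± 0.16 (SE, adjusted p = 0.502) with 12 animals. With 11 it was 0.43 ± 0.12 (adjusted p = 0.0429), a 1.34-fold difference that is under the fold threshold. Exons of the antisense gene Junos cover 7.28% of the exons of Jun.

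Junb (ENSMUSG00000052837), a Jun family member that activates weakly and can restrain Jun, had 12.96, 8.60, 14.8 and 14.9 CPM in RA-PBS. The O2-PBS animals had 55.8, 26.2, 26.2 and 27.8 CPM, and the O2-IC100 animals had 21.6, 20.1, 20.02 and 20.4 CPM. No group overlapped another, animal 10 included. Within O2-PBS, animal 5 was far above the other animals. The rise over RA-PBS was 2.65-fold, a log2 fold change of 1.40 ± 0.26 (SE, adjusted p = 0.0477) with 12 animals and 1.40 ± 0.24 (adjusted p = 0.00394) with 11. An exon of Prdx2 on the opposite strand covers 7.52% of the exons of Junb, and the strandedness of the libraries is not given in the sources used here.

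Egr1 (ENSMUSG00000038418), the most widely used activity marker of the family, did not separate the groups. It had 7.57, 6.38, 9.94 and 9.43 CPM in RA-PBS, 15.4, 16.7, 6.33 and 9.15 CPM in O2-PBS, and 12.99, 4.42, 15.9 and 5.74 CPM in O2-IC100. In both oxygen groups 2 animals were high and 2 were within or below the RA-PBS range. The O2-PBS log2 fold change was 0.51 ± 0.42 (SE, adjusted p = 1) with 12 animals and 0.51 ± 0.33 (adjusted p = 0.404) with 11.

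Egr2 (ENSMUSG00000037868), also known as Krox20 and required for myelination by Schwann cells, was near the floor of these libraries in room air. RA-PBS animals 1 to 4 had 0, 3, 2 and 3 counts, O2-PBS animals 5 to 8 had 57, 13, 17 and 9 counts, and O2-IC100 animals 9 to 12 had 10, 5, 2 and 20 counts. O2-PBS lay above RA-PBS in every animal, while O2-IC100 animal 11 was within the RA-PBS range. Summed over the animals, 96 counts in O2-PBS and 8 in RA-PBS gave a depth-scaled ratio of 12.7, with a 95% interval of 6.18 to 30.2 that covers counting error only. The fitted log2 fold change was 3.64 ± 0.89 (SE, adjusted p = 0.141) with 12 animals and 3.63 ± 0.87 (adjusted p = 0.021) with 11, and at such counts its size depends on the prior count.

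Egr3 (ENSMUSG00000033730), a family member induced by activity and by VEGF in endothelium, was even across the room air animals and higher in every O2-PBS animal. It had 0.898, 0.821, 0.888 and 0.737 CPM in RA-PBS, from 14 to 17 counts a library. The O2-PBS animals had 3.44, 4.01, 3.96 and 2.27 CPM, and the O2-IC100 animals had 2.56, 0.758, 1.68 and 0.637 CPM. Animals 10 and 12 were at the RA-PBS level, and animals 9 and 11 lay between RA-PBS and most of O2-PBS. The rise in O2-PBS was 4.07-fold, a log2 fold change of 2.02 ± 0.41 (SE, adjusted p = 0.0652) with 12 animals and 2.03 ± 0.36 (adjusted p = 0.00427) with 11.

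Arc (ENSMUSG00000022602), whose protein forms capsids and drives the removal of AMPA receptors from synapses, showed no separation. It had 2.36, 1.26, 0.833 and 2.42 CPM in RA-PBS, 1.75, 2.35, 2.71 and 2.00 CPM in O2-PBS, and 1.92, 2.27, 1.39 and 1.96 CPM in O2-IC100. All 3 groups overlapped. The O2-PBS log2 fold change was 0.36 ± 0.34 (SE, adjusted p = 1) with 12 animals and 0.36 ± 0.33 (adjusted p = 0.575) with 11.

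Nr4a1 (ENSMUSG00000023034), also called Nur77, had 35.6, 36.0, 39.2 and 26.6 CPM in RA-PBS. It had 64.5, 57.9, 39.8 and 47.3 CPM in O2-PBS and 52.5, 20.1, 44.2 and 41.6 CPM in O2-IC100. Animal 7 was only just above the highest RA-PBS animal. Animal 10 was below RA-PBS, and the other 3 O2-IC100 animals were within the O2-PBS range. The fold change in O2-PBS was 1.52, close to the threshold, with a log2 fold change of 0.61 ± 0.26 (SE, adjusted p = 0.669) with 12 animals and 0.61 ± 0.15 (adjusted p = 0.0253) with 11. That call was lost when animal 4, 5 or 6 was left out as well, at log2 fold changes of 0.50, 0.49 and 0.55.

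The O2-PBS animals did not contribute evenly. Animal 5 was the highest of its group for 6 of 10 genes, among them Fos, Fosl2, Jun, Junb and Nr4a1, and it was the highest for 32.9% of all tested genes. Without animals 5 and 10, the log2 fold changes over RA-PBS were 0.75 for Fos, 1.62 for Fosb, 1.06 for Fosl2, 1.06 for Junb, 2.69 for Egr2 and 2.03 for Egr3. All of these stayed past the thresholds, with adjusted p-values from 0.00175 to 0.0804 by edgeR's quasi-likelihood test. Jun then had a log2 fold change of 0.27. Fosb and Egr3, for which animal 5 was not the highest, kept nearly the same values.

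The second comparison asked what IC100 did to these transcripts under the same oxygen exposure. All 10 genes had lower means in O2-IC100 than in O2-PBS, but none passed the test in either fit by edgeR's quasi-likelihood test. With 12 animals, 0 of 10 were called (0% of all tested genes called lower), and 3 had an unadjusted p under 0.05, as did 16.9% of all tested genes. Without animal 10, 0 of 10 were called (0.731% of all tested genes), and again 3 had an unadjusted p under 0.05, against 19.2% of all tested genes. These were Fosb, Junb and Egr3 in both fits. DESeq2 called 0 genes with 12 animals and called these 3 with 11, where it called 2.3% of all tested genes in either direction, while limma voom called 0 in both. In Fosb and Junb every O2-IC100 animal lay below every O2-PBS animal, so 2 of 10 genes did not overlap, where 10.7% of tested genes were lower without overlap with 12 animals and 17.3% with 11. The median log2 fold change over the 10 genes was -0.44 with 12 animals and -0.30 with 11, and over all tested genes it was 0.

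By size, Egr2 and Egr3 had the lowest log2 fold changes in O2-IC100 against O2-PBS. Egr2 had -1.31 ± 0.76 (SE, adjusted p = 0.365) with 12 animals and -1.34 ± 0.77 (adjusted p = 0.343) with 11. Its summed counts, 32 over 3 animals against 96 over 4, gave a ratio of 0.397 with a 95% counting interval of 0.257 to 0.598. Egr3 had -1.25 ± 0.40 (adjusted p = 0.287) and -1.06 ± 0.37 (adjusted p = 0.187). Junb had -0.73 ± 0.26 (adjusted p = 0.287) and -0.70 ± 0.26 (adjusted p = 0.199). Its O2-IC100 animals spanned only 20.02 to 21.6 CPM, and without animal 5 of O2-PBS the 11-animal value for Junb was -0.37. Fosb had -0.87 ± 0.28 (adjusted p = 0.287) and -0.67 ± 0.21 (adjusted p = 0.165).

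The other genes were closer to the O2-PBS level. With 11 animals the log2 fold change was -0.28 ± 0.21 (SE) for Fos, -0.24 ± 0.21 for Fosl2, -0.28 ± 0.13 for Jun, -0.17 ± 0.16 for Nr4a1, -0.31 ± 0.36 for Arc and -0.03 ± 0.35 for Egr1. Their adjusted p-values ran from 0.26 to 0.971 by edgeR's quasi-likelihood test. The values for Fos and Nr4a1 had been -0.49 and -0.40 with animal 10, in whose library both were low. Without O2-PBS animal 5, the value for Fos went to -0.06 and that for Fosl2 to 0.

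The third comparison set O2-IC100 against RA-PBS, and it shares each of its groups with one of the comparisons above. With 12 animals, 0 of 10 genes were called by edgeR's quasi-likelihood test (0% of all tested genes called higher), while 4 had an unadjusted p under 0.05, as did 13.2% of all tested genes. DESeq2 called Fosl2 in this setting, with 1.81% of all tested genes in either direction, and limma voom called 0. Without animal 10, Fosb and Fosl2 were higher, so 2 of 10 were called against 0.947% of all tested genes. Fosb had a log2 fold change of 1.00 ± 0.22 (SE, adjusted p = 0.059) and Fosl2 one of 1.07 ± 0.21 (adjusted p = 0.0434). Leaving out animal 9, 11 or 12 as well removed both calls.

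Every O2-IC100 animal was above every RA-PBS animal for 2 of 10 genes with animal 10 (Fosl2 and Junb), where 2.57% of tested genes showed this. Without animal 10 this held for 5 of 10 genes (Fos, Fosb, Fosl2, Junb and Nr4a1), where 5.18% of tested genes showed it. With 11 animals the log2 fold change over RA-PBS was 0.69 ± 0.21 (SE, adjusted p = 0.141) for Fos, 0.70 ± 0.26 (adjusted p = 0.214) for Junb and 0.44 ± 0.16 (adjusted p = 0.208) for Nr4a1. It was 0.96 ± 0.39 (adjusted p = 0.258) for Egr3 and 2.29 ± 0.97 (adjusted p = 0.275) for Egr2, from 32 counts against 8. The value was 0.15 ± 0.13 for Jun, 0.49 ± 0.36 for Egr1 and 0.05 ± 0.36 for Arc. The mean of O2-IC100 lay between those of RA-PBS and O2-PBS for all 10 genes, with and without animal 10. The share of all tested genes in this order was not counted. With 11 animals some gaps were small, as for Egr1 (11.5 CPM in O2-IC100, 11.9 CPM in O2-PBS) and Arc (1.76 CPM in O2-IC100, 1.72 CPM in RA-PBS). For Fosl2, whose means with 11 animals were 9.28, 19.3 and 23.0 CPM, the O2-IC100 mean was near that of O2-PBS. For Junb (12.8, 20.7 and 34.0 CPM), Fosb (2.69, 5.32 and 8.55 CPM) and Egr3 (0.836, 1.62 and 3.42 CPM) the O2-IC100 mean was farther from that of O2-PBS. Neighbours in this order did not pass edgeR's test, except O2-IC100 over RA-PBS for Fosb and Fosl2 with 11 animals.

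**Figure D2:**
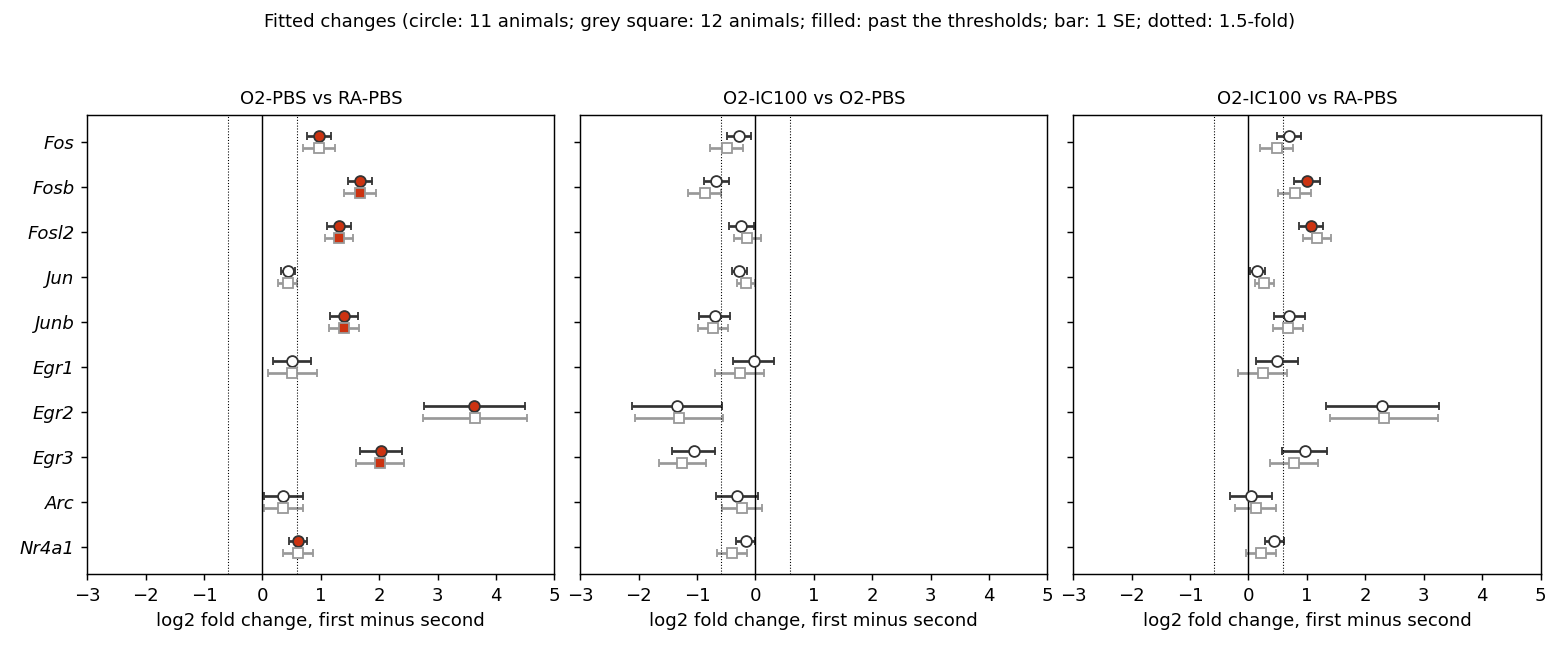
Log2 fold change with its SE for the 10 immediate early genes in the 3 comparisons, from the fits with 12 animals (squares) and 11 animals (circles), where filled points passed the thresholds. Fosb, Fosl2, Junb and Egr3 passed in both fits for O2-PBS over RA-PBS, and all values for O2-IC100 over O2-PBS lie below 0 with none past the thresholds.

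The Y-linked level moved with the groups, since 3 of 4 O2-PBS animals were low. O2-PBS animal 8, the one with a high level, was above the 3 high O2-IC100 animals for 4 of 10 genes (Fosb, Jun, Junb and Arc), where 32.1% of tested genes were above. With the Y-linked level as a covariate and 11 animals, 6 genes were called higher in O2-PBS than in RA-PBS, and Egr2 was lost (log2 fold change 2.96, adjusted p = 0.106), with 5.27% of all tested genes called in either direction. The same covariate took the O2-IC100 over O2-PBS value of Fos from -0.28 to 0.04, that of Junb from -0.70 to -0.39 and that of Fosb from -0.67 to -0.47. With the lens level as the covariate, 7 genes were called in O2-PBS over RA-PBS with 11 animals, in a fit that called 20.3% of all tested genes in either direction, against 6.27% without the covariate.

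Lists of related genes were set beside these 10. They are described for the fit with 11 animals and the comparison of O2-PBS with RA-PBS, unless stated. In the counts of each list, genes that rose or fell are those called past the thresholds. Of all 16688 genes tested in that fit, 682 (4.09%) were called higher and 364 lower. Among 17 other rapid-response transcription factors tested, 4 rose and 0 fell, with a median log2 fold change of 0.36. Maff, a small Maf protein, rose by 1.61 ± 0.28 (SE, adjusted p = 0.00342), Atf3, a stress-induced repressor that pairs with Jun proteins, by 1.43 ± 0.28 (adjusted p = 0.00809), and Myc, a growth regulator, by 1.74 ± 0.46 (adjusted p = 0.032). Of the 19 inducible feedback regulators, 3 rose, with a median of 0.17 over the list. These were Dusp2, a phosphatase of MAP kinases, at 2.25 ± 0.42 (adjusted p = 0.00536), Gadd45b, a stress sensor, at 1.33 ± 0.28 (adjusted p = 0.0109), and Nab2, a co-repressor that is itself induced by Egr proteins, at 1.22 ± 0.17 (adjusted p = 0.000849). Animal 5 was the highest O2-PBS animal for 5 of these 7 called genes, the fourth transcription factor being Klf10. Exons of an antisense gene cover 35.7% of those of Nab2, whose level is therefore uncertain. In RA-PBS animals 1 to 4, Dusp2 had 3, 5, 9 and 10 counts and Myc 2, 14, 19 and 22 counts. The sizes of these 2 rises therefore rest on few counts.

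Among the 8 matricellular and SRF target genes, 5 rose, with a median log2 fold change of 1.19. They included smooth muscle actin Acta2 (1.32 ± 0.41, SE, adjusted p = 0.0793) and its binding protein gene Tagln (1.28 ± 0.23, adjusted p = 0.00488). Exons of an antisense gene cover 62.4% of those of Tagln, so its level is uncertain too. In O2-IC100 over O2-PBS the median of this list was -0.87, with 0 genes called by edgeR and 4 at an unadjusted p under 0.05. Of all tested genes, 0.731% were called lower there and 19.2% had an unadjusted p under 0.05. Of the 23 constitutive upstream factors and kinases, 1 rose, where 4.09% of all tested genes did, and 1 fell, with a median of 0.02. Elk3, an ETS partner of SRF that is also expressed in endothelium, rose by 1.09 ± 0.14 (adjusted p = 0.000482), and Mapk10, which encodes the neuronal kinase JNK3, fell by 0.64 on the log2 scale (SE 0.10, adjusted p = 0.00213). Exons of Cdk17 on the opposite strand cover 6.95% of those of Elk3. None of the 7 dimer partners tested of the ATF and MAF families was called by edgeR (median 0.13). Of these, 2 had an unadjusted p under 0.05, as did 21.9% of all tested genes. This list left out Atf3 and Maff, which were called above among the rapid-response transcription factors.

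Of the genes of these lists, only Dusp2, Nab2, Elk3 and 1 gene under 1 CPM on average were also called with 12 animals. In O2-IC100 over RA-PBS, Nab2 remained higher at 0.94 ± 0.18 (SE, adjusted p = 0.0379), as did Elk3 at 0.67 ± 0.15 (adjusted p = 0.0594). Npas4, an activity-dependent neuronal factor, was higher there by 0.62 ± 0.16 (adjusted p = 0.081) and was not called in the other comparisons.

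**Figure D3:**
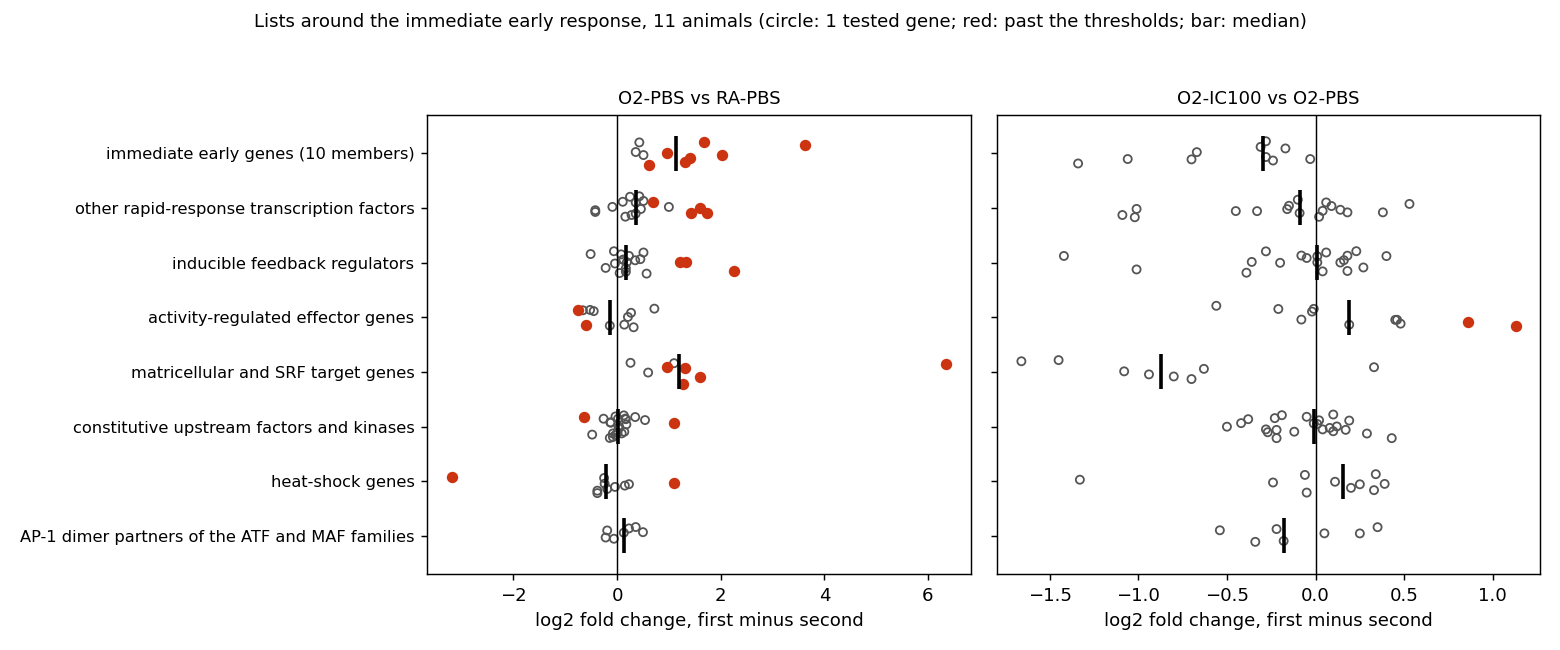
Log2 fold change of each tested gene (circles, red where past the thresholds) with the list median (bar), for the immediate early genes and the related gene lists in O2-PBS over RA-PBS and in O2-IC100 over O2-PBS, from the fit with 11 animals, on axes that differ in range. The immediate early genes (median 1.14) and the SRF target list (median 1.19) lie highest in O2-PBS over RA-PBS, and the upstream factors centre near 0.

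Markers of several cell types differed between the groups, in both directions, and are given for the 11-animal fit. Again, genes that rose or fell are those called past the thresholds. Of all 16688 genes tested, 682 were called higher in O2-PBS over RA-PBS and 364 lower. Endothelial markers summed to 223.2 to 332.1 CPM in RA-PBS, 442.2 to 498.1 CPM in O2-PBS and 322.9 to 363.6 CPM in O2-IC100 without animal 10, and 6 of 8 rose in O2-PBS over RA-PBS. Pericyte markers summed to 156.7 to 187.3, 331.6 to 467.7 and 293.6 to 354.7 CPM, and 5 of 6 rose. Reactive glia markers summed to 159.7 to 568.4, 458.6 to 667.8 and 246.2 to 326.7 CPM, and 3 of 6 rose. For microglia the sums were 48.4 to 99.3, 91.1 to 119.5 and 113.7 to 140.7 CPM, and 3 of 9 rose, with the highest sums in O2-IC100 and not in O2-PBS. With 12 animals in the fit these counts were 1 of 8, 0 of 6, 1 of 6 and 0 of 9, where 0.782% of all tested genes were called higher. By direction alone with 11 animals, 8 of 8 endothelial, 6 of 6 pericyte, 6 of 6 reactive glia and 7 of 9 microglia markers were higher in O2-PBS. Hypoxia targets summed to 961.7 to 1125, 1363 to 1527 and 1161 to 1260 CPM, and 3 of 9 rose in both fits, while 7 of 9 were higher by direction alone.

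Summed markers of Müller glia, ganglion cells and horizontal cells were lower in O2-PBS than in RA-PBS. Müller glia markers summed to 3544 to 4796 CPM in RA-PBS, 2788 to 3100 CPM in O2-PBS and 3359 to 3652 CPM in O2-IC100, and 1 of 6 fell. Ganglion cell markers summed to 763.2 to 1141, 620.8 to 688.6 and 788.8 to 819.7 CPM, and 1 of 6 fell. Horizontal cell markers summed to 107.8 to 167.3, 81.64 to 95.07 and 110.5 to 117.3 CPM, and 1 of 4 fell. By direction alone, 5 of 6 Müller glia, 5 of 6 ganglion cell and 4 of 4 horizontal cell markers were lower in O2-PBS. In these 3 lists no O2-PBS sum overlapped one of RA-PBS. In the lists that follow the sums did overlap. Pigment epithelium markers summed to 43.7 to 144.2 CPM in RA-PBS and 17.7 to 53.75 CPM in O2-PBS, and 4 of 6 fell. All 6 bipolar and all 6 amacrine markers were lower, at median log2 fold changes of -0.32 and -0.34, with 1 and 0 called. Rod and cone markers went in both directions, with 0 called. Heat-shock genes summed to 2671 to 3983 CPM in RA-PBS and 2635 to 2936 CPM in O2-PBS. Of these, 1 rose and 1 fell, and 7 of 10 were lower in O2-PBS. Hspb1 fell by 3.19 on the log2 scale (SE 0.85, adjusted p = 0.0565), with 2.52, 27.96, 97.03 and 48.97 CPM in RA-PBS and 4.30 to 5.67 CPM in O2-PBS. Lens genes took 0.0075, 1.3, 4.67 and 1.48% of counts in these RA-PBS animals, and lens-rich animal 10 had 4396 CPM of Hspb1. RA-PBS animal 1, with the least lens, was below every O2-PBS animal. The part of lens tissue in this fall was not tested. Bag3 rose (1.10 ± 0.31, SE, adjusted p = 0.0429), with 20.2 CPM in animal 5 and 6.62 to 8.26 CPM in animals 6 to 8. The part of these cell types and of stress in the levels of the immediate early genes was not tested.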

How the data were processed

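Poly(A)-selected RNA of 12 retinas was sequenced as paired 150 bp reads. The authors pseudoaligned the reads with Kallisto to the GRCm39_104 transcriptome and summed transcripts per gene with tximport, and they deposited expected counts without normalization, of which 42.2% were not whole. Tool versions are not given in the sources used here. Counts were rounded here to whole numbers, and edgeR 4.0.16 was run in R 4.3.3 (TMM, filterByExpr, robust quasi-likelihood fit of the 3 groups, two-sided F tests, Benjamini-Hochberg over all tested genes). Thresholds were a fold change of 1.5, p under 0.05 and adjusted p under 0.1, after the study's methods. The SE is the log2 fold change over the square root of F. Counting intervals were exact binomial and cover counting error only, and 3 counts were taken as the floor of a library.

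The 10 genes and the other lists were chosen with earlier results of these data known. Named from the other lists were called genes averaging at least 1 CPM, at most 3 per list, comparison and fit, by size of the log2 fold change, and 1 gene that this takes in is not reported here. The gene Klf10, the comparison of animals with a high Y-linked level and the leading animal of each group were added after the values were seen. Promoter windows were of RefSeq GRCm38.p6 and exon overlaps of the GRCm38 annotation. The alternatives were DESeq2 1.42.0, limma 3.58.1 voom, other normalizations and filters, removal of lens genes, fits of only the groups compared, covariates for the lens and Y-linked levels, and each animal left out. The procedure was tested on simulated data.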

Additional observations from a re-analysis of the deposited data

Results flagged for a closer look

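In 3 of 30 sets of 4 animals (10 genes in 3 groups), 1 animal stood apart from its group, with a gap to the nearest animal, as a share of the whole range, above Dixon's critical value for 4 samples. Chance gives this in about 1 in 20 sets. All 3 were O2-PBS animal 5 at the top of its group. Junb had 55.78 CPM there, where the next animal had 27.77 CPM (gap 0.946 of the range). Fosl2 had 34.13 CPM against 20.18 CPM (gap 0.853), and Egr2 had 3.437 CPM against 0.9612 CPM (gap 0.843).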

How the results depend on the processing

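Among the alternatives that kept the animals, the O2-PBS over RA-PBS count of called genes with 12 animals, 4, stayed within 1.5 times in all but one, since it was 0 without TMM factors. With 11 animals all such alternatives gave 6 or 7. For O2-IC100 over O2-PBS the count of 0 went to 3 with the Y-linked covariate (12 animals, where 22.3% of all tested genes were called in either direction), to 3 by DESeq2 (2.3% of all) and to 2 in the fit of only these groups (4.83%), against 0.947% in the 11-animal fit they replace. For O2-IC100 over RA-PBS with 12 animals it went from 0 to 1 by DESeq2 (1.81% of all), 2 with the lens covariate (24.5% of all tested genes called) and 1 with the Y-linked covariate (0.546%), and with 11 animals from 2 to 1 in the fit of only these groups (0.11%) and to 1 with the lens covariate (11.9%). The causes were not tested.

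Leaving out single animals gave counts of 0 to 7 for O2-PBS over RA-PBS with 12 animals (0 without RA-PBS animal 2 or 4, 1 without animal 1, 3, 5 or 8, 2 without animal 7, 7 without animal 10) and 6 to 7 with 11. For O2-IC100 over O2-PBS the range was 0 to 0 with 12 animals and 0 to 1 with 11 (Fosb, without RA-PBS animal 2 or 4). For O2-IC100 over RA-PBS it was 0 to 2 with 12 animals (2 without animal 10). With 11 it was 0 to 4, with 0 without animal 9, 11 or 12, 1 without animal 2 and 4 without animal 5.

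Direction turned in 20 cases, all of genes that were not called. For O2-IC100 over RA-PBS with 12 animals, Jun became -0.03 and Arc -0.14 without TMM factors, Egr1 became 0 and Nr4a1 -0.04 with the lens covariate, and over single animals left out Arc ranged from -0.09 to 0.34 (0 without animal 2, lowest without animal 3) and Egr1 from -0.10 (without animal 11) to 0.49. With 11 animals Arc became -0.43 with the lens covariate, and over single animals left out it ranged from -0.19 to 0.26, below 0 without animal 2 (-0.09), 3, 9 (-0.02) or 12 (-0.04). For O2-PBS over RA-PBS with 11 animals, Arc became -0.11 with the lens covariate. For O2-IC100 over O2-PBS, Fosl2 over single animals left out ranged from -0.24 to 0.12, the latter without animal 5 (12 animals). With 11 animals Fos became 0.04, Egr1 0.28 and Arc 0.05 with the Y-linked covariate, and Egr1 ranged from -0.33 to 0.30, above 0 without animal 5 (0.10), 6 (0.18) or 12. No paired analysis was possible because the groups share no animal numbers. Depth limits Egr2 (0 to 3 counts in RA-PBS), Egr3 and Arc, and a stricter filter on low counts removed Egr2 from the test.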

Other observations

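A further list held activity-regulated effector genes, whose products act at synapses or are secreted by neurons. Of 11 tested with 11 animals, 0 were called higher and 2 lower in O2-PBS than in RA-PBS, and the median log2 fold change was -0.14. Of all 16688 genes tested, 682 were called higher and 364 lower. Vgf, which encodes a secreted neuropeptide precursor, had 22.1, 28.4, 18.5 and 18.9 CPM in RA-PBS, 13.99, 9.59, 13.97 and 14.2 CPM in O2-PBS, and 35.7, 24.7 and 23.5 CPM in O2-IC100 animals 9, 11 and 12. It was lowest in O2-PBS, with no overlap between O2-PBS and either other group. It fell by 0.76 on the log2 scale in O2-PBS (adjusted p = 0.0185, edgeR's quasi-likelihood test) and was higher in O2-IC100 than in O2-PBS by 1.13 ± 0.19 (SE, adjusted p = 0.0327). These comparisons share the O2-PBS animals.

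Bdnf, a neurotrophin, had 9.37, 7.87, 8.05 and 9.95 CPM in RA-PBS, 5.97, 5.89, 6.73 and 7.26 CPM in O2-PBS, and 13.2, 11.1 and 10.5 CPM in O2-IC100 animals 9, 11 and 12. It was higher in O2-IC100 than in O2-PBS by 0.86 ± 0.15 (SE, adjusted p = 0.0327, edgeR). Exons of an antisense gene cover 14.4% of those of Bdnf. Nrn1, a neurite growth factor gene, fell by 0.59 on the log2 scale in O2-PBS against RA-PBS (adjusted p = 0.0689, edgeR). Exons of Fars2 on the opposite strand cover 22.3% of those of Nrn1, so its level is uncertain. Tac1, which encodes substance P, was higher in O2-IC100 than in RA-PBS by 0.76 ± 0.17 (adjusted p = 0.0645, edgeR). In animal 10, whose library was mostly lens, Vgf had 2.40 and Bdnf 5.81 CPM, and none of these calls was made by edgeR with 12 animals, where in the 3 comparisons 0, 1 and 0 of the 11 genes had an unadjusted p under 0.05 (O2-PBS over RA-PBS, O2-IC100 over O2-PBS and O2-IC100 over RA-PBS). Among all tested genes, 7.12%, 16.9% and 13.2% had such a p in these comparisons.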
